A study of Bombyx mori with 4 samples.

Results

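The most abundant protein-coding mRNAs whose level differed little between BmN4 cells depleted of Siwi and control cells were described. BmN4 is a cultured cell line derived from the silkworm (Bombyx mori) ovary. A gene was included when its RPKM (reads normalized to sequence length and to the number of genome-mapped reads) in the control was above 100 and its log2 fold change (FC), taken as log2 of the Siwi KD/Luc KD ratio of RPKM + 1, lay from -1 to 1. In total, 208 of the 14300 protein-coding genes in the table met this rule, out of 18596 sequences that also include 4296 transposons. Siwi KD cells had been electroporated with siRNA against Siwi, and Luc KD cells with siRNA against luciferase as a control. Total RNA was isolated with DNase treatment, depleted of ribosomal RNA (the kit's probes are for mammalian rRNA), and sequenced as paired ends from 2 libraries of each condition. These had 81135072 and 77184922 reads for Siwi KD and 77614516 and 68702400 reads for Luc KD.

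The authors merged the replicates, so that each gene had 1 value per condition. No difference between Siwi KD and Luc KD could therefore be set against the spread between replicates, and no p-value is given. The genes were selected on their RPKM in Luc KD and on the FC, so both are given as descriptions of these merged libraries. All counts in the table were even numbers, which is what counting the 2 reads of each pair would give, and counting errors were computed on pairs. They cover counting error only and leave out differences between cultures. The knockdown was not checked on Siwi mRNA here, because the gene models carry identifiers that matched no entry (0) of the RefSeq gene table used. The abundant mRNAs are therefore given by length and rank in Luc KD, with identifiers for only 4 of them, and 45 of the 208 share their length with another.

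PIWI proteins bind small RNAs called piRNAs, which guide them to complementary transcripts. Siwi is a silkworm PIWI protein that cleaves transposon mRNAs in nuage, a membrane-less compartment of germ cells, while most protein-coding mRNAs are not thought of as its targets. In eukaryotic cells the most abundant mRNAs commonly encode housekeeping proteins such as ribosomal proteins, translation factors and cytoskeletal proteins, many of them small. Which of the present gene models encode such proteins is not stated in the table. The label "stable" refers to the small difference between the conditions, and mRNA half-life was not measured.

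The table held 84961588 reads for Siwi KD and 77350240 for Luc KD. Of these, transposons took 65.5% and 61.3% in Siwi KD and Luc KD, and a single transposon sequence of 9536 nt took 35.7% and 41.0%. The genome-mapped reads by which RPKM was scaled numbered 129779634 for Siwi KD and 122229138 for Luc KD. For comparison, 2617 protein-coding genes were above 10 RPKM in at least 1 condition, here called expressed, and 2409 of them were not among the abundant mRNAs.

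The rule took 208 of the 211 protein-coding genes above 100 RPKM in Luc KD. The other 3 lay outside the FC range, as did 2.79% of all expressed protein-coding genes. One of these, 1397 nt long, had 1169 RPKM in Siwi KD and 107 RPKM in Luc KD, a log2 FC of 3.44. The other two, of 1234 and 1261 nt, lay just beyond the lower limit. The gene of 1234 nt had 75.4 RPKM in Siwi KD and 154 RPKM in Luc KD (log2 FC -1.02), and that of 1261 nt had 50.7 and 103.5 RPKM in Siwi KD and Luc KD (log2 FC -1.02). The lowest FC inside the limit was -0.90, in a gene of 570 nt, and the highest was 0.74, in a gene of 2842 nt. At the limit of level, the last gene inside had 101.6 RPKM in Luc KD and the first outside, of 1209 nt, had 99.4 RPKM. The limit of level thus cut through a continuous range, whereas between the highest FC inside and the gene outside there was a wide gap.

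The 208 abundant mRNAs were 1.45% of all protein-coding genes and 7.95% of the expressed ones, but they held a large part of the protein-coding signal, the size of which depended on the measure. Their RPKM summed to 106379 in Siwi KD and 120664 in Luc KD. This was 66.2% of the summed RPKM of expressed protein-coding genes in Siwi KD and 67.7% in Luc KD. When transposons were included in the denominator, they held 43.2% in Siwi KD and 49.5% in Luc KD. With all 14300 protein-coding genes, low ones included, the share was 58.3% in Siwi KD and 60.2% in Luc KD.

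By reads, which are not divided by length, the share was lower. The abundant mRNAs received 13305226 reads in Siwi KD and 14154002 reads in Luc KD. These were 55.2% of the reads on expressed protein-coding genes in Siwi KD (95% Wilson interval on read pairs 55.16% to 55.22%) and 56.9% in Luc KD (56.91% to 56.96%). Of the reads on all 14300 protein-coding genes, they received 45.3% in Siwi KD and 47.3% in Luc KD. Of all reads counted, they made up 15.7% in Siwi KD and 18.3% in Luc KD. The intervals cover counting error only and leave out differences between cultures, so they do not compare the conditions. The genes were also chosen for a high value in Luc KD, which by itself can raise their share there.

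Among themselves the abundant mRNAs differed widely in level. Siwi KD levels ran between 60.2 and 3733 RPKM, with a median of 298 and quartiles of 140 and 705. Levels in Luc KD, where the limit was set, ran between 101.6 and 4577 RPKM, with a median of 314 and quartiles of 156 and 800. In Siwi KD, 187 of the 208 were still above 100 RPKM.

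**Figure D1:**
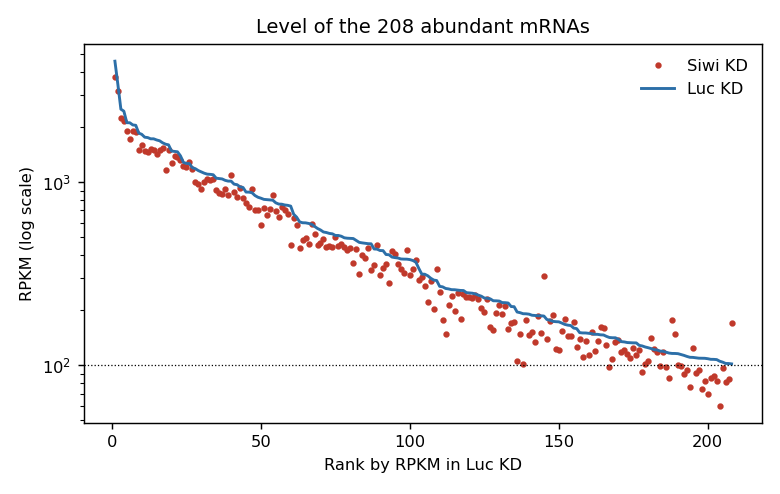
RPKM on a log scale of the 208 abundant mRNAs in Siwi KD (points) and in Luc KD (line), ordered by rank in Luc KD, with the limit of 100 RPKM dotted. Most points lie slightly below the line, and the points scatter more toward the low end, where the member of rank 208 has 170 RPKM in Siwi KD and 101.6 RPKM in Luc KD.

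No single mRNA dominated the set. The 10 highest in Luc KD held 20.5% of the summed RPKM of the set in Siwi KD and 20.7% in Luc KD. It took 35 genes to reach 50% of the sum in Siwi KD and 36 genes in Luc KD. The 104 lower ranks together held 14.8% in Siwi KD and 14.9% in Luc KD. Of all expressed protein-coding genes, 75 held 50% of the summed RPKM in Siwi KD and 73 in Luc KD.

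The highest was KWMTBOMO05355.mrna1, a gene model of 2159 nt. It had 3733 RPKM in Siwi KD (1045842 reads) and 4577 RPKM in Luc KD (1207946 reads), and its log2 FC was -0.29 (counting error 0.0027). It alone received 3.56% of the reads on protein-coding genes in Siwi KD and 4.04% in Luc KD. The next, KWMTBOMO09230.mrna1, is much shorter, at 546 nt, and had 3154 RPKM in Siwi KD (223514 reads) and 3407 RPKM in Luc KD (227376 reads). Its log2 FC was -0.11. The first therefore had several times the reads of the second, whereas their RPKM values lay close together. The functions of both genes are not given in the table.

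Below these, the order was kept nearly intact, which the rule by itself favors. An mRNA of 654 nt had 2253 RPKM in Siwi KD and 2503 RPKM in Luc KD, and one of 1747 nt had 2171 RPKM in Siwi KD and 2441 RPKM in Luc KD. The mRNA of rank 9, only 420 nt long, had 1492 RPKM in Siwi KD and 1853 RPKM in Luc KD, the lowest log2 FC among the 10 highest (-0.31). Of the 10 highest in Luc KD, 9 were also among the 10 highest in Siwi KD. The median change of rank over the 208 was 5 places and the largest was 68. Spearman's rho between the levels in Siwi KD and Luc KD was 0.98 over the 208 genes, given as a description because genes are not replicates. The rule kept only genes with a log2 FC from -1 to 1. Their levels in Luc KD ran between 101.6 and 4577 RPKM. Large changes of order over this range were thus limited in advance, so the rho and the kept ranks cannot show that the order was stable.

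The abundant mRNAs were short. Their median length was 843.5 nt, with quartiles of 588 and 1339 nt and a range of 296 to 5109 nt. For the other 2409 expressed protein-coding genes, the median was 1318 nt, with quartiles of 856 and 1945 nt. Lengths of 1000 nt or less were found for 125 of the 208 abundant mRNAs (60.1%) and for 797 of the others (33.1%). Only 3 abundant mRNAs (1.44%) were over 3000 nt long, against 190 of the others (7.89%).

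In bins of 500 nt, 106 abundant mRNAs (51.0%) fell between 501 and 1000 nt, against 716 of the others (29.7%). This bin held 59.7% of the summed RPKM of the abundant mRNAs in Siwi KD and 59.5% in Luc KD. By reads in Luc KD, it held 42.4%. The 19 mRNAs of 500 nt or less held 8.99% of the summed RPKM in Siwi KD and 9.38% in Luc KD. Abundant mRNAs made up 19.0% of the expressed protein-coding genes in this shortest bin, 12.9% between 501 and 1000 nt, 6.18% between 1001 and 1500 nt and 4.62% between 1501 and 2000 nt.

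**Figure D2:**
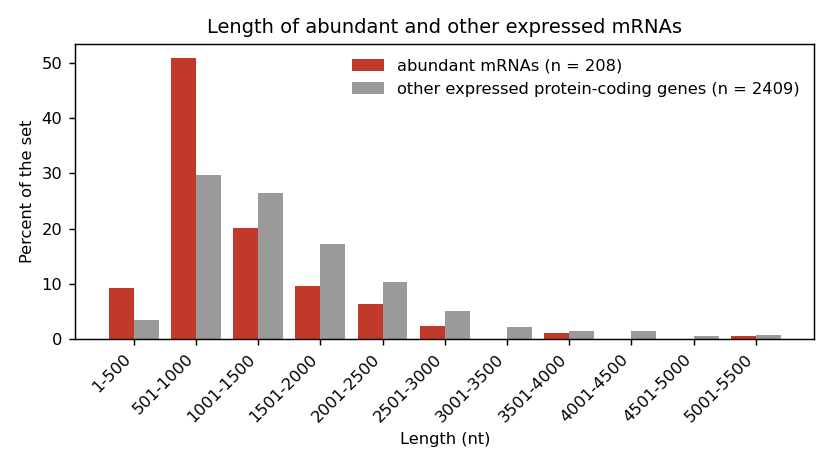
Percent of the 208 abundant mRNAs (red) and of the 2409 other expressed protein-coding genes (gray) in each bin of 500 nt of length, of which 42 other genes longer than 5500 nt are not drawn. Just over a majority of the abundant mRNAs, 51.0%, lie between 501 and 1000 nt, against 29.7% of the other genes.

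Because RPKM is divided by length, a short gene needs fewer reads to pass 100 RPKM. Reads are not divided by length, so at equal RPKM a longer gene has more of them. When the same number of genes, 208, was taken by reads in Luc KD instead, without limits on FC, the median length was 1260 nt. The quartiles were 713 and 2094 nt. Of these genes, 164 (78.8%) were also among the abundant mRNAs. The median length of that set was close to the 1279 nt of all expressed protein-coding genes, so that the short median of the abundant mRNAs was seen with RPKM and not with reads. Within the abundant mRNAs, Spearman's rho across genes between length and level in Luc KD was -0.24 by RPKM and 0.28 by reads, both from the same counts.

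Median length was shorter at higher levels up to 1000 RPKM. Among genes within a log2 FC of 1, it was 1403 nt between 10 and 20 RPKM in Luc KD, 1189 nt between 20 and 50 RPKM and 1158.5 nt between 50 and 100 RPKM. Within the abundant mRNAs, it was 1078 nt between 100 and 200 RPKM, 884.5 nt between 200 and 500 RPKM, 670 nt between 500 and 1000 RPKM and 714.5 nt above 1000 RPKM. The last class held 40 genes with 54.2% of the summed RPKM of the set in Siwi KD and 53.9% in Luc KD. The quartiles of neighboring classes overlapped.

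Of the 208 abundant mRNAs, 185 (88.9%) had a lower RPKM in Siwi KD and 23 (11.1%) a higher one. Over all 2617 expressed protein-coding genes, 69.1% were lower and 30.9% higher. The median log2 FC of the abundant mRNAs was -0.20, with quartiles of -0.30 and -0.08, and that of all expressed protein-coding genes was -0.13, so that the abundant mRNAs lay 0.07 below it. This was not particular to the abundant mRNAs. Among less abundant genes within a log2 FC of 1, the median was -0.10 between 10 and 20 RPKM in Luc KD (66.7% lower), -0.19 between 20 and 50 RPKM (77.0% lower) and -0.21 between 50 and 100 RPKM (79.7% lower). Below the median of -0.13 were 137 abundant mRNAs (65.9%) and 48.6% of the other expressed genes. Since the genes were chosen for a high value in Luc KD, which is also the denominator of the FC, the choice itself can favor lower values in Siwi KD. When the limit of 100 RPKM was applied to Siwi KD in place of Luc KD, an alternative chosen after seeing the data, the median was -0.17 over 193 genes and 85.0% were lower.

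The sums moved the same way. Reads on the abundant mRNAs changed by -6.00% and genome-mapped reads by 6.18%. Summed RPKM, in which reads are divided by length and by genome-mapped reads, changed by -11.8%. For the other expressed protein-coding genes, reads changed by 0.89% and summed RPKM by -5.73%. These include the gene of 1397 nt left out by the FC range. It had 211872 reads in Siwi KD and 18260 in Luc KD. For expressed protein-coding genes up to 100 RPKM in Luc KD, reads changed by -0.74% and summed RPKM by -7.39%. Of the net change of summed RPKM over expressed protein-coding genes, -17590, the abundant mRNAs accounted for -14285, or 81.2%. Their share of the sum in Luc KD, where they were chosen for high values, was 67.7%. The net change also includes the rise of the gene of 1397 nt, which makes the net fall smaller. Counted as reads without any scaling, 154 of the 208 (74.0%) had fewer in Siwi KD, against 56.0% of the other expressed genes. RPKM in Siwi KD was also divided by the median ratio of the expressed protein-coding genes, which was -0.14 on the log2 scale. The rule then gave 210 genes with a median of -0.06, of which 64.8% were lower. Cell number and RNA per cell were not measured, so a lower share of RNA and less RNA per cell cannot be told apart.

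Most differences were small. For 188 of the abundant mRNAs (90.4%), the log2 FC lay between -0.5 and 0.5, against 87.4% of all expressed protein-coding genes. It was below -0.5 for 17 (8.17%), against 7.91% of all, and above 0.5 for 3 (1.44%), against 4.66% of all. The set of all includes genes beyond a log2 FC of 1, which the rule left out. Of the 2336 other expressed genes within it, 89.9% lay between -0.5 and 0.5, 6.85% below and 3.25% above. In finer steps, 108 lay between -0.25 and 0, 60 between -0.5 and -0.25, and 19 between 0 and 0.25.

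The SD of the log2 FC over the 208 was 0.22 and the median absolute deviation was 0.11. For the 2336 other expressed genes held to the same range of -1 to 1, the SD was 0.29. The counting errors of the abundant mRNAs were between 0.0027 and 0.05, with a root mean square of 0.02, so the spread was 12.4 times what counting gives. The log2 FC was more than 2 counting errors from 0 for 198 of the 208. This was so for 75.4% of all expressed protein-coding genes, whose counting errors were larger. The median log2 FC of the latter was -0.13, so a shift shared by all genes enters both numbers. They do not count genes that changed relative to the others. How much of the spread comes from differences between replicate cultures was not tested, since the replicates were merged.

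**Figure D3:**
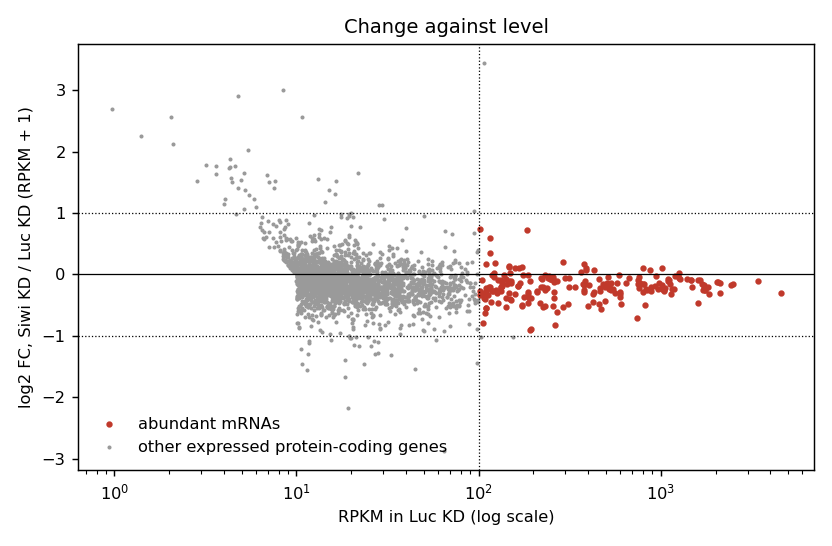
Log2 FC of Siwi KD over Luc KD against RPKM in Luc KD for the 208 abundant mRNAs (red) and the other expressed protein-coding genes (gray), with dotted lines at 100 RPKM and at a log2 FC of -1 and 1. The red points narrow toward the right around a median of -0.20, and the gray points in the upper left are genes above 10 RPKM only in Siwi KD.

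The spread as SD became narrower with level. Among genes within a log2 FC of 1, the SD was 0.27 between 10 and 20 RPKM in Luc KD, 0.26 between 20 and 50 RPKM and 0.28 between 50 and 100 RPKM. In the abundant mRNAs, it was 0.30 for the 73 genes between 100 and 200 RPKM, 0.21 for the 58 between 200 and 500 RPKM, 0.15 for the 37 between 500 and 1000 RPKM and 0.11 for the 40 above 1000 RPKM. The narrowing thus began only above 200 RPKM. The quartiles did not narrow at the last step. They were -0.26 and -0.13 between 500 and 1000 RPKM, and -0.25 and -0.09 above 1000 RPKM. Counting error also decreased over the 4 abundant classes, between a root mean square of 0.024 in the lowest and 0.008 in the highest, and was in each far smaller than the SD.

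The direction became more uniform with level by RPKM, but not relative to the other genes. Between 100 and 200 RPKM, 60 of 73 genes were lower in Siwi KD, between 200 and 500 RPKM 52 of 58, between 500 and 1000 RPKM 35 of 37 and above 1000 RPKM 38 of 40. The median log2 FC was -0.21, -0.21, -0.19 and -0.16 in these classes, so that the most abundant genes had the smallest median difference. Below the median of all expressed protein-coding genes, -0.13, were 48 of 73, 36 of 58, 29 of 37 and 24 of 40 genes in the same order. The larger part of lower genes at high levels thus went with a smaller SD and a median below 0.

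**Figure D4:**
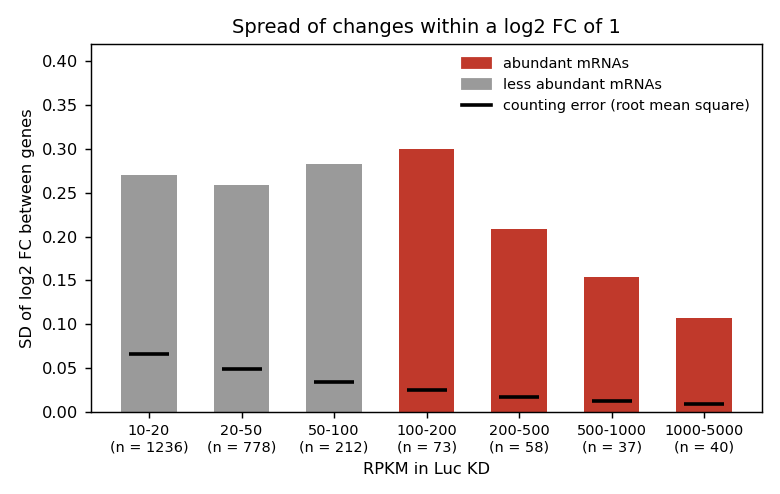
SD between genes of the log2 FC of Siwi KD over Luc KD in classes of RPKM in Luc KD, for genes within a log2 FC of 1 (bars, abundant mRNAs in red), with the root mean square counting error of each class (black lines). The SD is 0.30 between 100 and 200 RPKM and 0.11 above 1000 RPKM, and the counting error is far below it in every class.

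All 10 of the highest mRNAs were lower in Siwi KD, with log2 FCs between -0.31 and -0.11, and 7 of them were also below the median of the expressed protein-coding genes. The other three, among them KWMTBOMO09230.mrna1, lay slightly above this median. The 10 highest accounted for 21.9% of the net change of summed RPKM of the abundant mRNAs, close to their 20.7% of the sum in Luc KD.

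The highest mRNAs that were not lower came further down. KWMTBOMO12287.mrna1, of 513 nt and rank 26, had 1289 RPKM in Siwi KD (85842 reads) and 1262 RPKM in Luc KD (79154 reads), and its log2 FC was 0.03 (counting error 0.01). KWMTBOMO13979.mrna1, of 1437 nt and rank 40, had 1092 RPKM in Siwi KD (203588 reads) and 1013 RPKM in Luc KD (177874 reads), a log2 FC of 0.11. These were the only 2 above 1000 RPKM with a higher value in Siwi KD. The 23 genes with a higher value had a median level of 188 RPKM in Siwi KD and 174 RPKM in Luc KD, below the medians of the whole set.

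The 17 genes with a log2 FC below -0.5 lay between 60.2 and 452 RPKM in Siwi KD and between 105 and 740 RPKM in Luc KD. The gene of 570 nt had 102.0 RPKM in Siwi KD (7548 reads) and 191 RPKM in Luc KD (13312 reads), with a log2 FC of -0.90. A gene of 1212 nt had 105.0 RPKM in Siwi KD and 195 RPKM in Luc KD (log2 FC -0.89), and one of 1565 nt had 149 RPKM in Siwi KD and 263 RPKM in Luc KD (log2 FC -0.82). The most abundant of the 17 was a gene of 1475 nt at rank 60, with 452 RPKM in Siwi KD and 740 RPKM in Luc KD (log2 FC -0.71). Their lengths spread over 296 to 3833 nt, with a median of 1078 nt, so that neither short nor long genes alone made up this tail.

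The 3 genes with a log2 FC above 0.5 were all longer than 2000 nt and all below 200 RPKM in Luc KD. The gene of 2842 nt had 170 RPKM in Siwi KD (62660 reads) and 101.6 RPKM in Luc KD (35306 reads), a log2 FC of 0.74. A gene of 2325 nt had 306 RPKM in Siwi KD (92340 reads) and 186 RPKM in Luc KD (52730 reads), a log2 FC of 0.72. The longest of the set, 5109 nt, had 176 RPKM in Siwi KD (116742 reads) and 116 RPKM in Luc KD (72390 reads), a log2 FC of 0.60. The next highest log2 FC, 0.35, belonged to a gene of 501 nt, with 148 RPKM in Siwi KD and 116 RPKM in Luc KD.

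Abundant mRNAs of 500 nt or less had a lower median than those of the other bins with 5 or more genes, although the lowest single values belonged to longer genes. Of the 19 short mRNAs, 17 were lower in Siwi KD, with a median log2 FC of -0.37 and a range of -0.79 to 0.17, and 16 were below the median of the expressed protein-coding genes. The 81 other expressed genes of this length were low as well, with a median of -0.29 and 81.5% of them lower, so that the difference of short genes was not particular to the abundant ones. Between 501 and 1000 nt, the median was -0.20 for the abundant mRNAs and -0.15 for the others, between 1001 and 1500 nt -0.18 and -0.10, and between 1501 and 2000 nt -0.22 and -0.12. In each of these bins the abundant mRNAs had the lower median.

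Above 2000 nt, the 21 abundant mRNAs had a median log2 FC of -0.09, which was negative by RPKM but above the median of all expressed protein-coding genes, and 9 of the 21 were below that median. Between 2001 and 2500 nt, the median was -0.09 for 13 abundant mRNAs and -0.12 for the others. Only 3 were over 3000 nt. That of 3833 nt had 69.5 RPKM in Siwi KD and 108 RPKM in Luc KD (log2 FC -0.64), that of 3758 nt had 171 RPKM in Siwi KD and 209 RPKM in Luc KD (log2 FC -0.29), and that of 5109 nt was higher in Siwi KD, as given above. Over all 208 genes, Spearman's rho between length and log2 FC was 0.14, which is weak. Whether fragment size differed between the libraries was not tested.

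**Figure D5:**
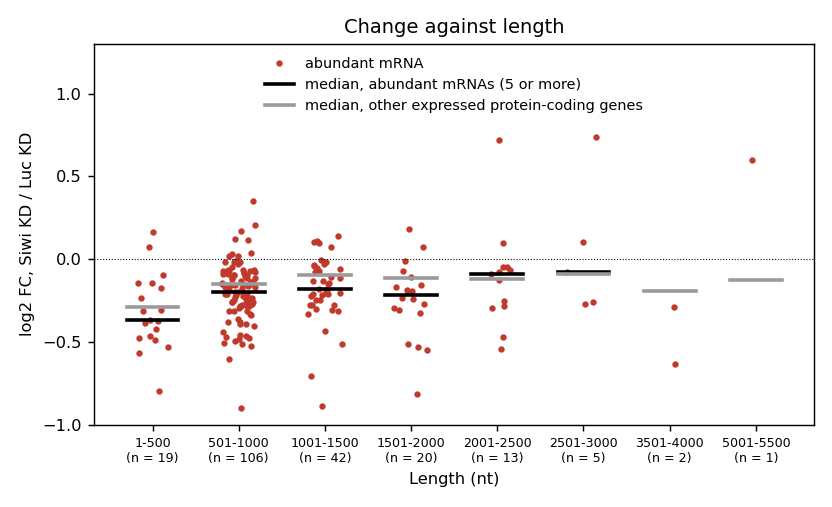
Log2 FC of Siwi KD over Luc KD of each abundant mRNA (red points) in bins of 500 nt of length, with the median of the abundant mRNAs where there are 5 or more (black) and that of the other expressed protein-coding genes (gray). The median is -0.37 for the 19 mRNAs of 500 nt or less and -0.20 for the 106 between 501 and 1000 nt, and the 3 points above 0.5 are longer than 2000 nt.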

How the data were processed

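Total RNA of BmN4 cells was sequenced from 2 libraries each of Siwi KD and Luc KD. The authors corrected the reads with Rcorrector, trimmed them with Trim Galore 0.6.6, discarded reads under 36 nt, used STAR for mapping to the silkworm genome and again for mapping to 16880 gene models and 1716 transposons in random and multiple counting modes with up to 4% mismatches, so near-identical genes can share reads. The deposited counts are sense reads per sequence with replicates merged by the authors. For the deposited RPKM values, the authors divided these counts by sequence length and by genome-mapped reads and added no pseudo-count. Annotation and length were used as given, and no coordinates or sequences were used here.

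The genes and comparisons were chosen with earlier results of these data known. Columns held 1 merged value per condition, so edgeR, replicate blocks and leaving out replicates were not run, and sums, medians and counts are descriptions. FCs used a pseudo-count of 1, and expressed genes had more than 10 RPKM in either condition. Shares of reads have 95% Wilson intervals on pairs. For a sequence of 1000 nt, 1 pair is worth 0.0154 RPKM in Siwi KD and 0.0164 RPKM in Luc KD, and each abundant mRNA had at least 1636 pairs per condition. Identifiers are printed for the 2 most abundant genes that were higher and the 2 that were lower in Siwi KD. Alternatives covered the limits, the pseudo-count, the scaling and the measure summed. Tools were Python 3.11.15, pandas 2.3.3, numpy 2.4.6, matplotlib 3.10.9 and scipy 1.17.1. The calculations of FC and counting error were tested on simulated counts, which held counting error only.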

Additional observations from a re-analysis of the deposited data

How the results depend on the processing

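No paired analysis was possible because the deposited columns hold merged replicates. For the same reason, fits without each replicate, edgeR and DESeq2 were not run. The median log2 FC stayed below 0 under each setting tried, and leaving out the pseudo-count gave the same 208 genes, with a median of -0.20 and an SD of 0.22. The 208 genes were shared by every setting except a limit of 200 RPKM (135 shared), leaving out the 10 highest (198) and limits on the mean (198) or on Siwi KD (187). Values are given as median length, percent of summed RPKM of expressed protein-coding genes in Siwi KD and in Luc KD, percent of all expressed sequences in Luc KD, percent of the set held by the 10 highest in Luc KD, and median and SD of log2 FC, beside 843.5 nt, 66.2%, 67.7%, 49.5%, 20.7%, -0.20 and 0.22. With a limit of 50 RPKM, 420 genes had 974 nt, 74.1%, 75.7%, 55.4%, 18.5%, -0.21 and 0.25. With 200 RPKM, 135 genes had 785 nt, 60.5%, 61.9%, 45.3%, 22.6%, -0.18 and 0.17, and 92.6% were lower in Siwi KD. Without limits on FC, 211 genes had 876 nt, 67.0%, 67.9%, 49.6%, 20.6% and an SD of 0.34. With a pseudo-count of 10, 210 genes had 860 nt, 66.3%, 67.8%, 49.6%, 20.6% and a median of -0.19. Scaling to the median ratio of expressed protein-coding genes gave 860 nt, 66.3%, 67.8%, 49.6%, 20.6%, -0.064 and 0.24 for 210 genes, with 64.8% lower. With low protein-coding genes, but not low transposons, included in the sums, the shares were 58.3%, 60.2% and 45.3%. By reads of expressed sequences they were 55.2%, 56.9% and 19.9%, with 23.1% in the 10 highest. Without the 10 highest, which were also taken out of the totals, 198 genes had 860 nt, 60.9%, 62.4%, 43.7% and 17.4%. The settings that follow were chosen after seeing the data. The limit on the mean of both conditions gave 876 nt, 66.0%, 67.2%, 49.1%, 20.8%, -0.18 and 0.23. That on Siwi KD gave 843 nt, 65.5%, 66.6%, 48.7%, 21.0%, -0.17 and 0.25. RPKM scaled without the reads of the 9536-nt transposon gave 272 genes with 880.5 nt, 69.2%, 70.7%, 51.7%, 19.8%, -0.25 and 0.25. This scaling raises every RPKM value, so the unchanged limit of 100 RPKM also took in genes that had been below it. Depth limited none of these values, and the spread between replicates is unknown.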

Other observations

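The table numbers its gene models, and 20 of the 208 abundant mRNAs stood in 9 runs of consecutive numbers, a pattern looked for after the values were seen. How often other genes stand in such runs was not counted, so this number cannot be called high or low. The positions of these genes were not used here. The longest run had 4 models of 458 to 557 nt, with 82.5 to 340 RPKM in Siwi KD and 107 to 422 RPKM in Luc KD. Their log2 FCs were close together, between -0.42 and -0.31. Abundant mRNAs of 500 nt or less had a median of -0.37, and whether the closeness goes with length was not tested. In a run of 2 models of 513 and 2133 nt, the log2 FCs were 0.03 and -0.47, so that consecutive numbers did not always go with a similar FC.

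The abundant mRNA with the highest log2 FC, the gene of 2842 nt, is numbered 2 places before the gene of 1397 nt that was left out for its log2 FC of 3.44. The model between them, of 1002 nt, had 0.246 RPKM in Siwi KD (32 reads) and 0.098 RPKM in Luc KD (12 reads). The 4 models numbered after the gene of 1397 nt each had less than 2 RPKM in both conditions. Whether the 2 genes share reads was not tested.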
